A study of Mus musculus with 36 samples.

Results

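The unfolded protein response is described here through 10 genes in mouse liver: Hspa5, Hsp90b1, Pdia4, Dnajb9, Sdf2l1, Creld2, Herpud1, Xbp1, Atf4 and Ddit3. They were taken by symbol, with every probe set that the array's annotation assigned to them, which gave 21 probe sets for 10 of the 18193 genes on the array. All 10 genes were among the 12836 genes bright enough to be tested, and 3 of the 21 probe sets were below that limit (one each of Pdia4, Atf4 and Ddit3).

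The series measured liver RNA of 36 female mice aged 6 to 8 weeks, each fasted for 4 to 5 h, on 1 Affymetrix array per mouse, in 9 groups of 4. The 5 mutant groups came from lines with neural tube defects. Apob mice were heterozygous for Apobtm1Unc and Pax3 mice for Pax3Sp2H, and both were compared with the same 4 wild-type C57BL/6J mice (B6). Cd-Het mice were heterozygous for Lrp6Cd and Lp-Het mice for Vangl2Lp, and their controls (Cd-WT, Lp-WT) were wild-type mice of the same stocks. The ct mice came from a closed, randomly bred colony whose animals were all taken to be ct/ct, and their controls were wild-type mice of the inbred strain CBA/CaJ. The ct mutation and the difference in strain therefore cannot be told apart. The labels list Pax3 and Cd-Het as responsive to dietary "fa" (an abbreviation the labels do not spell out), and Apob, ct and Lp-Het as resistant to it. Whole liver pieces were used, so fewer cells of a type and less RNA per cell cannot be told apart.

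When unfolded proteins accumulate in the endoplasmic reticulum (ER), the sensors IRE1, PERK and ATF6 in its membrane signal to the nucleus. IRE1 splices Xbp1 mRNA, PERK slows translation while favouring that of ATF4, and cleaved ATF6 enters the nucleus; together they raise ER chaperones, degradation factors and, under lasting stress, the transcription factor CHOP. In liver, whose hepatocytes secrete large amounts of plasma protein and lipoprotein, XBP1 and the ER chaperones are abundant without added stress.

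ATF6 and XBP1 are known to act on the ER stress response element, and the promoters that hold it are printed to show which members share this sequence feature. RefSeq promoters (GRCm38.p6) were matched for 10 of 10 members, and the 250 bases before each start were searched on both strands. The full element (CCAAT, 9 bases of any kind, then CCACG) was found in Hspa5, Hsp90b1 (at 2 places) and Creld2, against 37 of all 32851 promoters (0.113%). The second form (ATTGG, 1 base of any kind, then CCACG) was found in Herpud1, against 10 promoters (0.0304%). The capitals mark these matches. In Creld2, and at the second place in Hsp90b1, the match is on the opposite strand and is printed as its reverse complement.
Hspa5, chr2:34771840-34772089, plus strand: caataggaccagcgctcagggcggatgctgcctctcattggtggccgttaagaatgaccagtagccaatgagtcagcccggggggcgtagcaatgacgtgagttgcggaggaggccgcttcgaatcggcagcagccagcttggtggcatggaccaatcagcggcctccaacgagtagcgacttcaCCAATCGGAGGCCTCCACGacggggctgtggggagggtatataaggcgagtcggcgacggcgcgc
Hsp90b1, chr10:86705445-86705694, minus strand: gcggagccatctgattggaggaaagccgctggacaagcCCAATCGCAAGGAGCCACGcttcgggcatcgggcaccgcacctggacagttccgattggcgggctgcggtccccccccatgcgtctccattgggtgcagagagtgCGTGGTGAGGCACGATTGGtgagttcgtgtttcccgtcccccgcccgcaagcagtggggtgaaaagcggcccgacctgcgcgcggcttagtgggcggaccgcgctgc
Creld2, chr15:88819396-88819645, plus strand: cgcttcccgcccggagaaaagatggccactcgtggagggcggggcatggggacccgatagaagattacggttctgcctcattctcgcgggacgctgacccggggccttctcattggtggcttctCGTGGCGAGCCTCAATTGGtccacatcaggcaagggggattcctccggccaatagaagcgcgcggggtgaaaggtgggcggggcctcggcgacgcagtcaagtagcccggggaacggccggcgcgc
Herpud1, chr8:94386179-94386428, plus strand: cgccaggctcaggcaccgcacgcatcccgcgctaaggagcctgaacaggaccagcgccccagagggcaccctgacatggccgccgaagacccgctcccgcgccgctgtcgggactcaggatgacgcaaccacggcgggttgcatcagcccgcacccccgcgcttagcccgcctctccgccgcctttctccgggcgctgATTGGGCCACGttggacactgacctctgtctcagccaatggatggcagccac
The Hspa5 match lies 65 to 47 bases before the start, those of Hsp90b1 212 to 194 and 107 to 89 bases before it, that of Creld2 126 to 108 bases before it, and that of Herpud1 52 to 42 bases before it. The XBP1 site core TGACGTGG (in 0.563% of all promoters) and the ATF4 site TGATGNAAT (in 0.816%) were found in 0 of the 10 windows. These are matches of letters in 250 bases, not measured binding.

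Array brightness and RNA quality bear on every value below. MAS5 signals had been scaled to a trimmed mean of 500.0 on each array. The ratio of 3′ to 5′ GAPDH control signal, which rises as RNA degrades, was 0.729 to 0.956 on 34 arrays, 1.72 on ct replicate 3 and 52.5 on CBA replicate 4; results of the ct comparison are given with and without those arrays. All 8 hepatocyte markers were among the tested genes. Apob, the mutated gene of the first line, had signals of 2654 to 12260 in Apob mice and 17299 to 27268 in B6 mice, and fell by 1.82 ± 0.42 on the log2 scale (limma, adjusted p = 0.0329). Lrp6 differed by 0.30 ± 0.34 in Cd-Het mice and Vangl2 by 0.35 ± 0.29 in Lp-Het mice, neither called (limma adjusted p = 1.00 and 0.854), and Pax3 was too dim to test.

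Signals below are linear, as mean ± SD over 4 arrays of the group's mice, from each gene's brightest probe set. Differences are mutant minus control on the scale log2(signal + 23.068), with the standard error of a limma fit over all 36 arrays, and a member counts as called where its p, adjusted by Benjamini-Hochberg over all 12836 genes, is below 0.05.

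The range of each member across the 9 groups is given here without that of all genes beside it. From means of log2(signal + 23.068), the highest group was above the lowest by 1.39-fold (Hsp90b1 and Atf4) to 1.82-fold (Creld2) in 9 genes, with Hspa5 at 1.70-fold, and by 2.18-fold for Ddit3 (Lp-Het over CBA). The Ddit3 value rested on the degraded CBA array, and without it and ct replicate 3 the range over the 10 genes was 1.40-fold (Ddit3, Lp-Het over B6) to 1.98-fold (Creld2, ct over Pax3). From linear means the widest gene was Creld2 (2.17-fold, Lp-WT over CBA), and Ddit3 was at 1.69-fold. When the groups were ordered by a member's mean, neighbours lay farther apart than the larger of their SDs in 1 of 8 pairs for each of Hspa5, Creld2 and Xbp1 and in 0 of 8 for the other 7 genes. For Hspa5 that pair was the highest group, ct, and the next, Cd-WT, with mean log2 values of 14.51 ± 0.27 and 14.14 ± 0.37 (SD, n = 4).

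**Figure D1:**
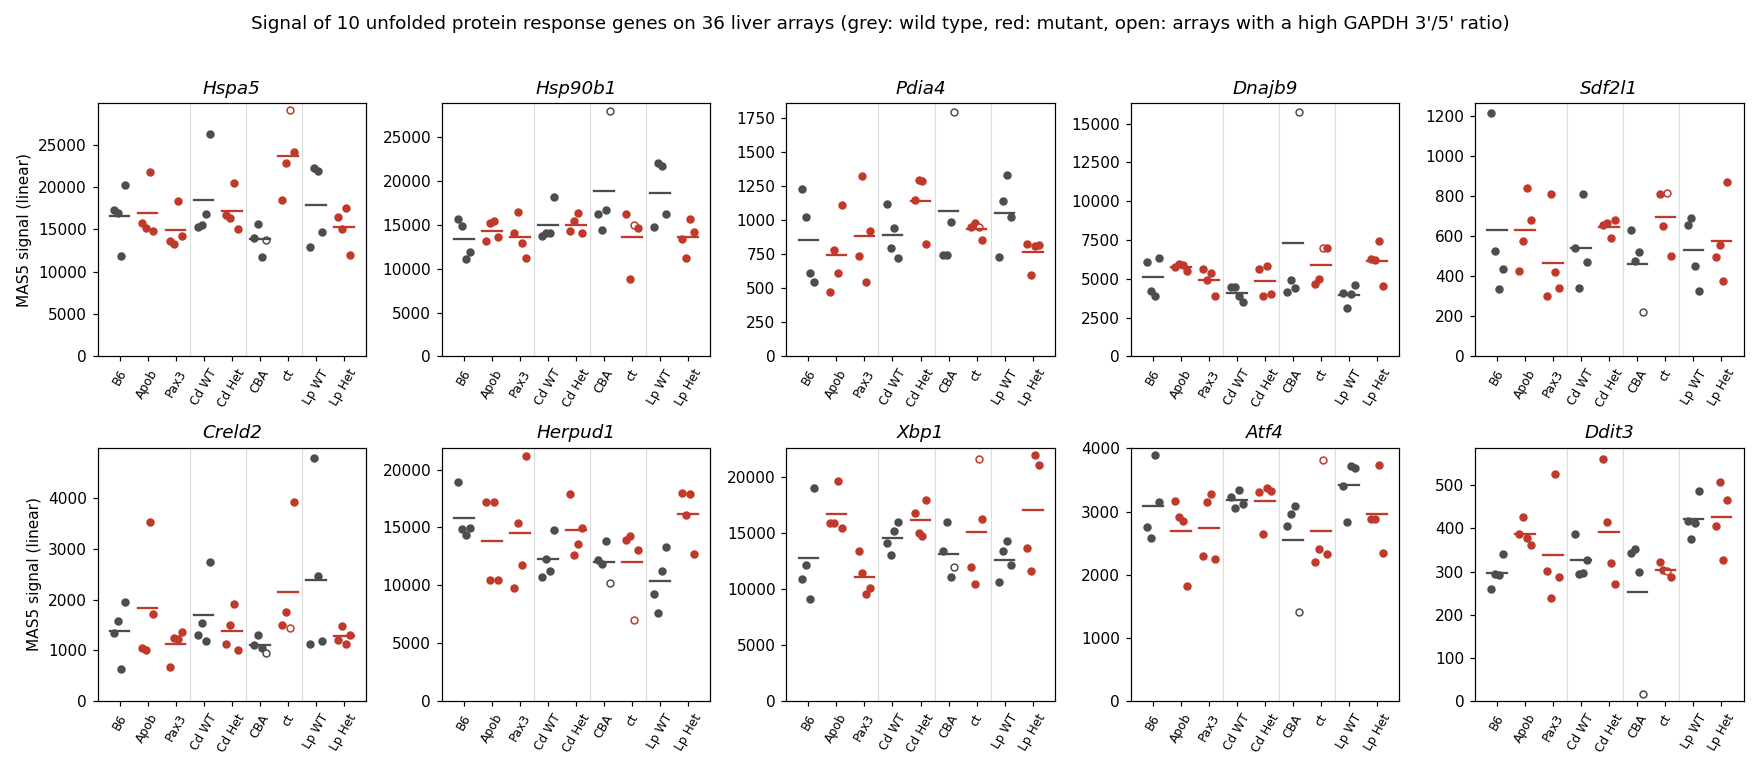
Linear MAS5 signal of the 10 genes on each of 36 arrays (y axis, from 0) by group (x axis); points are mice, bars are group means, grey is wild type, red is mutant, and open points are ct replicate 3 and CBA replicate 4. The 4 ct mice sit between 18476 and 29096 for Hspa5, all above the 4 CBA mice, while most other groups overlap their controls.

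Apob mice were compared with B6 mice to ask whether this apolipoprotein B allele moved the ER stress genes. None of the 10 members was called, while 0.553% of all genes were; the smallest member p was that of Xbp1 (unadjusted p = 0.0469, limma adjusted p = 0.447), the only one below 0.05 before adjustment, where 11.0% of all genes were below it. The members' median difference was 0.12, with 7 of 10 above 0, against 0.02 and 52.9% over all genes.

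By their brightest probe sets, the chaperones overlapped their controls in Apob mice and none was called. Hspa5, which encodes BiP, the ER member of the Hsp70 family and the ligand that holds the sensors inactive, had signals of 15768, 15175, 21766 and 14853 in Apob mice and 17235, 16904, 11862 and 20291 in B6 mice, a difference of 0.04 ± 0.20 (limma adjusted p = 0.983). Apob replicate 3 was the highest of the 8 mice and B6 replicate 3 the lowest, and the groups overlapped. Other probe sets of Hspa5 gave larger differences, 0.45 ± 0.28 for 1427464_s_at and 0.46 ± 0.21 for 1447824_x_at. Neither was called (limma adjusted p = 0.653 and 0.467 over all probe sets). Hsp90b1, the ER Hsp90 (GRP94), differed by 0.11 ± 0.19, Pdia4, a protein disulfide isomerase, by -0.18 ± 0.28, and Dnajb9, a BiP co-chaperone, by 0.20 ± 0.26. Sdf2l1, which acts with ER co-chaperones, differed by 0.13 ± 0.34 and Creld2, an ER protein with disulfide isomerase activity, by 0.32 ± 0.40. Without B6 replicate 3, whose pyruvate carboxylase ratio was 26.6, Hspa5, Sdf2l1 and Creld2 changed sign (-0.12, -0.10 and -0.01). They also did without Apob replicate 3 (-0.09, -0.02 and -0.06), whose ratio was 4.39. Herpud1, a membrane component of ER-associated degradation, had signals of 17157, 10421, 17218 and 10477 in Apob mice, on both sides of the B6 range of 14327 to 18956 (-0.23 ± 0.23).

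Among the transcription factors, Xbp1 was nominally higher and Ddit3 did not overlap, and neither was called. Xbp1 had signals of 15872, 15895, 19667 and 15466 in Apob mice and 10882, 12164, 9100 and 19024 in B6 mice (0.44 ± 0.21). The 4 Apob mice were above 3 of the 4 B6 mice, and B6 replicate 4 lay within their range. Ddit3, which encodes CHOP, had 387, 426, 377 and 361 in Apob mice and 259, 295, 291 and 341 in B6 mice, means of 388 ± 27.4 and 296 ± 33.7 (SD, n = 4). Every Apob mouse was above every B6 mouse, as for 5.17% of all genes, and the difference was 0.37 ± 0.38 (limma adjusted p = 0.824). The pooled SD of Ddit3 included the CBA array with the 3′ to 5′ ratio of 52.5, where Ddit3 read 16.3. Without that array and ct replicate 3 in the fit it was 0.37 ± 0.19 and still not called (limma adjusted p = 0.330). Atf4, the translationally controlled factor of the PERK branch, had 2690 ± 599 in Apob and 3096 ± 581 in B6 mice (-0.21 ± 0.21). Pancreatic acinar markers were mixed in Apob mice. Of 6 tested, 4 were above 0 and 2 below (median 0.14, lowest -0.44), and none was called. The summed signal of the 6 tested of 12 was 3668 to 4415 in Apob mice and 2172 to 2945 in B6 mice, without overlap, while Cpa1, Cpb1, Ctrb1, Pnlip, Amy2a5 and Try4 were too dim to test. Cela1 made up most of that sum, at 3038 ± 374 against 1524 ± 288 (0.99 ± 0.29, limma adjusted p = 0.124). It was called without ct replicate 3 and CBA replicate 4 in the fit (limma adjusted p = 0.0169), where the Apob calls over all 12836 genes went from 71 to 326. The part of acinar cells in the Apob differences was not tested.

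**Figure D2:**
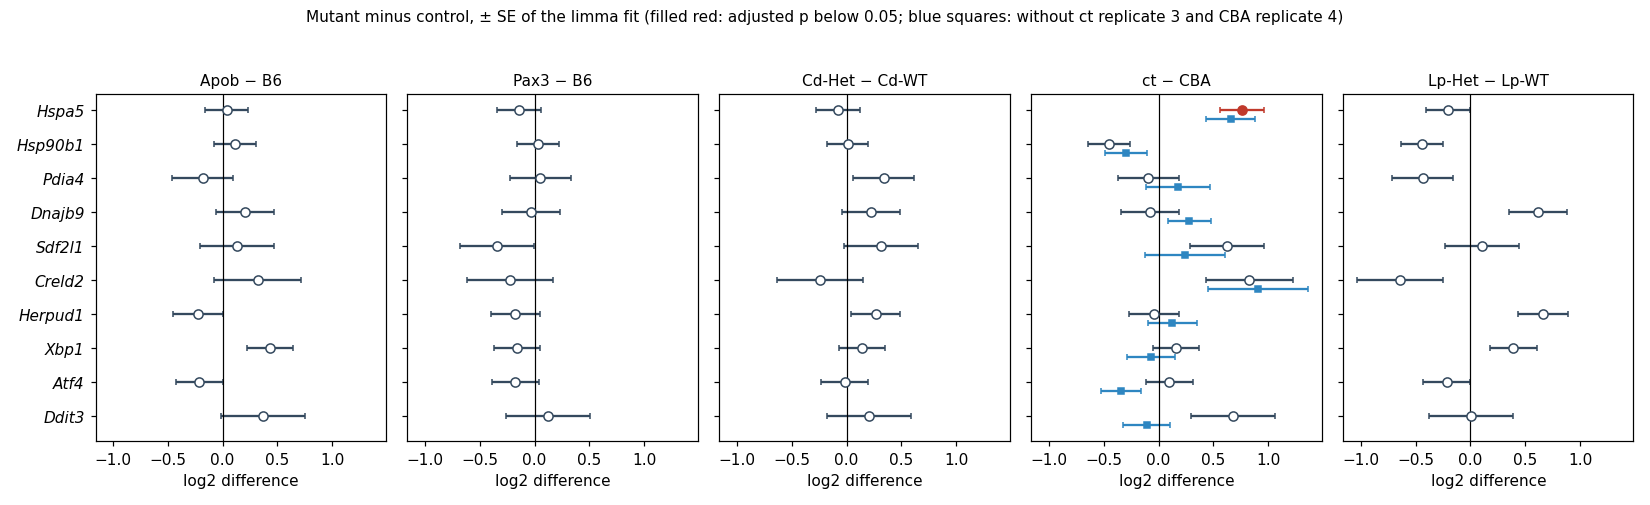
Log2 difference of the 10 genes (y axis) in the 5 comparisons of mutant minus control (x axis), with bars of ± 1 SE of the limma fit; the filled red point has an adjusted p below 0.05, and blue squares leave out ct replicate 3 and CBA replicate 4. Hspa5 in ct mice (0.76) is the called difference; it was 0.66 and not called without those arrays.

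The Pax3 line, set against the same B6 mice, had no called member, and 0.00% of all genes were called. None of the 10 had an unadjusted p below 0.05 either (5.36% of all genes did). The members' median was -0.15 against 0.01 over all genes. Hspa5 was 14872 ± 2381 in Pax3 and 16573 ± 3491 in B6 mice (-0.14 ± 0.20), and Sdf2l1, with 467 ± 233 against 629 ± 398, had the largest difference in size (-0.35 ± 0.34). Ddit3 was 301, 239, 525 and 287 in Pax3 mice, with 1 mouse above the B6 range of 259 to 341. Since both lines share the B6 mice, their values are given side by side only: for Xbp1 0.44 in Apob and -0.16 in Pax3 mice, and for Creld2 0.32 and -0.23. Hepatocyte markers were lower in mean in Pax3 mice: the summed signal of all 8 was 266079 to 344326 against 377932 to 421785 in B6 mice, without overlap. Their median difference was -0.39, with 6 of 8 below an unadjusted p of 0.05 and none called, and their part in the members' values was not tested.

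The Cd line (a mutation of Lrp6, a Wnt co-receptor) likewise had no called member, with 0.00% of all genes called and 0 of 10 members against 2.10% of all genes below an unadjusted p of 0.05. The members' median was 0.18 against 0.01 over all genes, and 7 of 10 were above 0 (51.2% of all genes). Pdia4 had the largest difference, 1138 ± 220 in Cd-Het against 892 ± 175 in Cd-WT mice (0.34 ± 0.28, limma adjusted p = 1.00). Hspa5 was 16711, 16284, 20523 and 14989 in Cd-Het mice and 15235, 15551, 16819 and 26203 in Cd-WT mice. Cd-WT replicate 4 was the highest Hspa5 value of this line, and also its highest for Hsp90b1 (18221) and Creld2 (2734). Without that mouse the Hspa5 difference changed sign, from -0.08 to 0.10.

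The ct mice held the called member. Hspa5 rose in ct mice, with 18476, 22835, 29096 and 24151 against 14016, 15680, 11791 and 13769 in CBA mice, means of 23639 ± 4372 and 13814 ± 1594 (SD, n = 4). All 4 ct mice were above all 4 CBA mice, as for 3.40% of all genes. The difference was 0.76 ± 0.20 (limma adjusted p = 0.0185), and 1 of 10 members called compares with 7.09% of all genes called, 3.65% in this direction. Without ct replicate 3 and CBA replicate 4 it was 0.66 ± 0.22 and no longer called (limma adjusted p = 0.129), and without ct replicate 3 alone 0.66 ± 0.21 (adjusted p = 0.0790). The call was also lost with quantile normalization (0.64, limma adjusted p = 0.0594) and when the ct and CBA arrays were fitted alone (0.76, limma adjusted p = 0.418). Of all 12836 genes, 910 were called in ct mice in the main fit and 880 with quantile normalization. Without ct replicate 3 and CBA replicate 4 the count was 236, and with the ct and CBA arrays fitted alone it was 38.

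Other probe sets of Hspa5 gave smaller differences in ct mice. Probe set 1427464_s_at differed by 0.56 ± 0.28 (9452, 9797, 9675 and 15777 against 7497, 11055, 7957 and 4459), and 1447824_x_at by 0.07 ± 0.21; without the degraded arrays they differed by 0.38 ± 0.30 and 0.11 ± 0.21. All 3 have suffixes that Affymetrix uses for probes able to match more than 1 transcript (_a_at, _s_at, _x_at).

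Creld2, whose promoter also holds the full element, was above all CBA mice in every ct mouse without being called. Its signals were 1492, 1766, 1443 and 3921 in ct mice and 1104, 1311, 1045 and 957 in CBA mice, with ct replicate 4 far above the rest. The difference was 0.83 ± 0.40 (limma adjusted p = 0.187) and 0.91 ± 0.46 without the degraded arrays (adjusted p = 0.369). Hsp90b1, which carries the element at 2 places, lay the other way, with 16233, 8813, 14984 and 14719 in ct mice and 16301, 14411, 16679 and 28017 in CBA mice. Its difference of -0.45 ± 0.19 (limma adjusted p = 0.134) was -0.30 ± 0.19 without those arrays (adjusted p = 0.516), CBA replicate 4 being the high value. Any link of the promoter element to these differences was not tested. In all, 3 of 10 members and 24.5% of all genes had an unadjusted p below 0.05 (Hspa5, Creld2 and Hsp90b1).

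For the remaining 7 members the ct difference changed sign or shrank without the degraded arrays. Dnajb9 was 4634 to 6986 in ct mice and 4152, 4888, 4401 and 15714 in CBA mice; its difference went from -0.08 ± 0.26 to 0.28 ± 0.20 without those arrays. Ddit3 was 323, 304, 301 and 287 in ct mice and 342, 352, 300 and 16.3 in CBA mice, and went from 0.68 ± 0.38 to -0.11 ± 0.21. Atf4 went from 0.10 ± 0.21 to -0.34 ± 0.18. Pdia4 (0.18), Herpud1 (0.13) and Xbp1 (-0.07) also changed sign without them, and Sdf2l1 went from 0.63 ± 0.34 to 0.24 ± 0.36. None of these 7 was called either way.

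Macrophage markers moved with the ct comparison. Of 11 Kupffer cell markers, 6 rose in ct mice (3.65% of all genes did), among them Marco, Lyz2 and C1qb. Their summed signal was 17904, 25211, 110093 and 25565 on the ct arrays against 16564 to 23525 on the CBA arrays. The value of 110093 was that of ct replicate 3, which also had the highest Hspa5. Among other cell type markers, Ighm (B cells), Cela2a (pancreatic acinar cells), Dcn (stellate cells) and Gzma (T and NK cells) rose and Pdgfrb, also a stellate marker, fell. Of 7 stellate markers, 5 were below 0 (median -0.16). Below 0 were also 2 of 6 acinar, 0 of 6 B cell and 1 of 4 T and NK cell markers tested. Without ct replicate 3 and CBA replicate 4, Pdgfrb was the only one of these markers still called. Of the marker lists, 6 of 12 acinar, 6 of 9 B cell and 4 of 6 T and NK cell genes were bright enough to test. The 3 ct arrays other than replicate 3 had Hspa5 of 18476 to 24151, above all CBA arrays, with Kupffer sums of 17904 to 25565. Without ct replicate 3 and CBA replicate 4, 9 of 11 Kupffer markers were above 0 in ct mice. Their median was then 0.27 against -0.03 over all genes, and none was called. The part of Kupffer cells or other cells in the Hspa5 difference was not tested.

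Lp-Het mice, set against Lp-WT mice, had no called member, and 0.0312% of all genes were called. Herpud1 and Dnajb9 were higher in mean and Hsp90b1 lower. Herpud1 was 17941, 16074, 17916 and 12734 in Lp-Het mice and 9232, 7636, 11212 and 13343 in Lp-WT mice (0.66 ± 0.23, limma adjusted p = 0.475). The 3 highest Lp-Het mice were above all Lp-WT mice, and Lp-Het replicate 4 was within the control range. Dnajb9 was 6258, 6193, 7454 and 4564 against 4106, 3142, 4024 and 4591 (0.61 ± 0.26, limma adjusted p = 0.595). Again Lp-Het replicate 4 alone overlapped the controls, by a small margin.

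Hsp90b1 was lower in mean in Lp-Het mice, at 13388, 11200, 15693 and 14209 against 14795, 22050, 21694 and 16258 (-0.45 ± 0.19, limma adjusted p = 0.595). Lp-WT replicates 2 and 3 were the high values, and the same mice were the highest of their group for Hspa5 (22227 and 21901), Creld2 (4788 and 2474) and Pdia4 (1141 and 1326). Herpud1, Dnajb9 and Hsp90b1, 3 of 10 members, had an unadjusted p below 0.05, against 7.16% of all genes. With array weights, which count noisier arrays less, all 3 were called (limma adjusted p = 0.0364, 0.0305 and 0.0463), and the count of all genes called went from 4 to 170. Xbp1 was 13704, 11595, 21982 and 21032 in Lp-Het mice, 2 of them above the Lp-WT range of 10639 to 14250 (0.39 ± 0.21). Hepatocyte markers lay higher in Lp-Het mice, with a summed signal of 409848 to 517574 against 342792 to 397321 in Lp-WT mice. All 8 were above 0 (median 0.29), none called, and their part in these differences was not tested.

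The differences between lines were tested directly. A moderated F test of the 5 mutant effects called 0 of 10 members (2.56% of all genes); Hspa5 had the smallest p (0.00946 unadjusted, limma adjusted p = 0.140). Among the 4 control groups, 0 of 10 members were called, against 11.1% of all genes. Ddit3 (limma adjusted p = 0.174) and Hsp90b1 (0.179) had the smallest p there. For both, the degraded CBA replicate 4 stood apart from the rest of its group, lowest for Ddit3 (16.3) and highest for Hsp90b1 (28017).

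Some members were read by probe sets that disagreed. Atf4 had a bright probe set, 1448135_at, and a dimmer one, 1438992_x_at, and their differences were of opposite sign in Apob mice (-0.21 and 0.72) and in ct mice (0.10 and -0.88), and unequal in Lp-Het mice (-0.22 and -0.79). The dimmer set read 945, 642, 1562 and 930 in ct mice and 1868, 1504, 1570 and 2434 in CBA mice, so that ct replicate 3 alone overlapped the controls. It fell by 0.88 ± 0.23 (limma adjusted p = 0.0302 over all probe sets), and by 0.97 ± 0.23 without the degraded arrays (adjusted p = 0.0251). Without those arrays the bright set was at -0.34 in ct mice, so that both sets then had the same sign. In Lp mice the dimmer set was 784 to 1410 in Lp-Het and 1627 to 1966 in Lp-WT mice, and not called (limma adjusted p = 0.479). These ranges did not overlap, and the share of all probe sets for which that held is not given here. The suffix _x_at marks probes that may also match other transcripts, and what this set reads besides Atf4 was not tested.

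Xbp1 had 4 probe sets. In Apob mice they gave 0.44, 0.33, 0.62 and 0.57, all above 0 and none called. In ct mice they gave 0.16, 1.21, 0.55 and -0.30; the value of 1.21 came from 1420886_a_at, which read 614 on the degraded CBA array and 11472 to 15926 on the other 3, and without the degraded arrays the 4 sets gave -0.07, -0.06, -0.47 and -0.39, all below 0 and none called. These values do not tell spliced from unspliced Xbp1 mRNA. Herpud1's second probe set gave 0.45 ± 0.34 in Lp-Het mice beside 0.66 from the first. Hsp90b1's second gave 0.08 in ct mice beside -0.45, and -0.15 beside -0.30 without the degraded arrays.

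**Figure D3:**
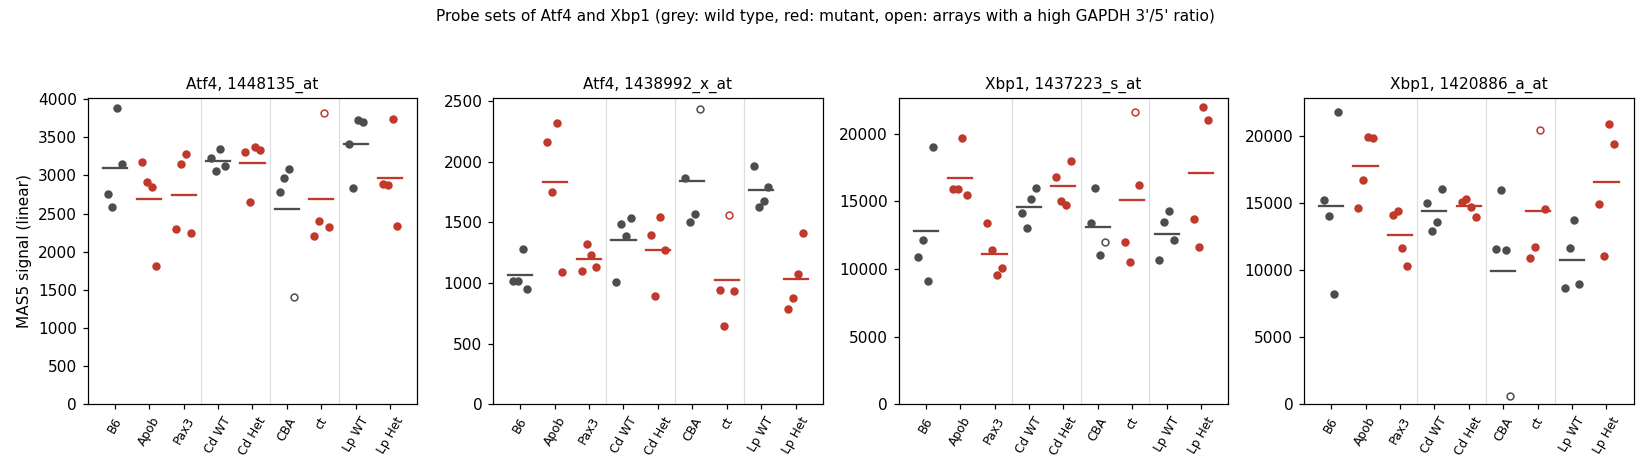
Linear MAS5 signal (y axis, from 0) of 2 probe sets each of Atf4 and Xbp1 by group (x axis); points are mice, bars are group means, grey is wild type, red is mutant, and open points are ct replicate 3 and CBA replicate 4. The Atf4 set 1438992_x_at is at 642 to 1562 in ct and 1504 to 2434 in CBA mice, with ct replicate 3 alone inside the CBA range, and the Xbp1 set 1420886_a_at is at 614 on the degraded CBA array.

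The other genes of the pathway were read from 5 lists of 114 genes in all. In the Apob, Pax3, Cd and Lp comparisons, 0 genes of the 5 lists were called. In Apob mice the medians were -0.11 for the sensors and their proteases (9 genes tested), 0.05 for the targets of ATF4 and CHOP (28), -0.14 for other ER chaperones and folding enzymes (24), -0.04 for ER-associated degradation (20) and -0.10 for translocation and transport out of the ER (26), against 0.02 over all genes. Without ct replicate 3 and CBA replicate 4 in the fit, the sensor protease Mbtps2 (-0.49) was called in Apob mice (limma adjusted p = 0.0347). It was the only gene of the 5 lists called there, and the Apob calls over all 12836 genes went from 71 to 326. Chaperone medians were -0.21 in Pax3, -0.05 in Cd-Het and 0.01 in Lp-Het mice.

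In ct mice, 4 of 24 chaperones and folding enzymes rose and none fell, where 7.09% of all genes were called and 3.65% rose; the list median was 0.52 against 0.01 over all genes. They were the lectin chaperone Calr (33055 ± 5417 against 21809 ± 8598, 0.71 ± 0.21, limma adjusted p = 0.0387), the disulfide isomerase Pdia5 (0.55 ± 0.15, adjusted p = 0.0232), the prolyl isomerase Fkbp2 (0.71 ± 0.23, adjusted p = 0.0498) and Cnpy2 (0.72 ± 0.23, adjusted p = 0.0499). Without the degraded arrays 0 of 24 were called, and the count over all genes went from 910 to 236. The list median was then 0.23 against -0.03 over all genes, with Calr at 0.23, Pdia5 at 0.30, Fkbp2 at 0.34 and Cnpy2 at 0.79. Of 9 sensors and proteases, 2 rose: Creb3l3, a liver transcription factor of the ATF6 kind (0.42 ± 0.13, adjusted p = 0.0462), and Nfe2l1, an ER-anchored regulator of proteasome genes (0.86 ± 0.23, adjusted p = 0.0205). Without those arrays they differed by 0.29 ± 0.13 and 0.71 ± 0.26, not called (adjusted p = 0.324 and 0.172).

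Of 20 degradation genes, 1 rose in ct mice, a share close to the 3.65% of all genes: Ube2g2, the ubiquitin-conjugating enzyme of ER-associated degradation, at 1168 ± 62.3 against 494 ± 152 (1.26 ± 0.22, limma adjusted p = 3.52e-04). It was still called without the degraded arrays (0.99 ± 0.22, adjusted p = 0.00905). None of 28 ATF4 and CHOP targets and none of 26 transport genes was called in ct mice; 4 and 5 of them, all higher, had an unadjusted p below 0.05, smaller shares than the 24.5% of all genes. The F test of the 5 mutant effects called 2 of the 107 list genes tested (1.87%, against 2.56% of all genes), Ube2g2 and Creb3l3. That of the 4 control groups called 10 of them (9.35%, against 11.1% of all genes), Ube2g2 and Nfe2l1 among them.

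**Figure D4:**
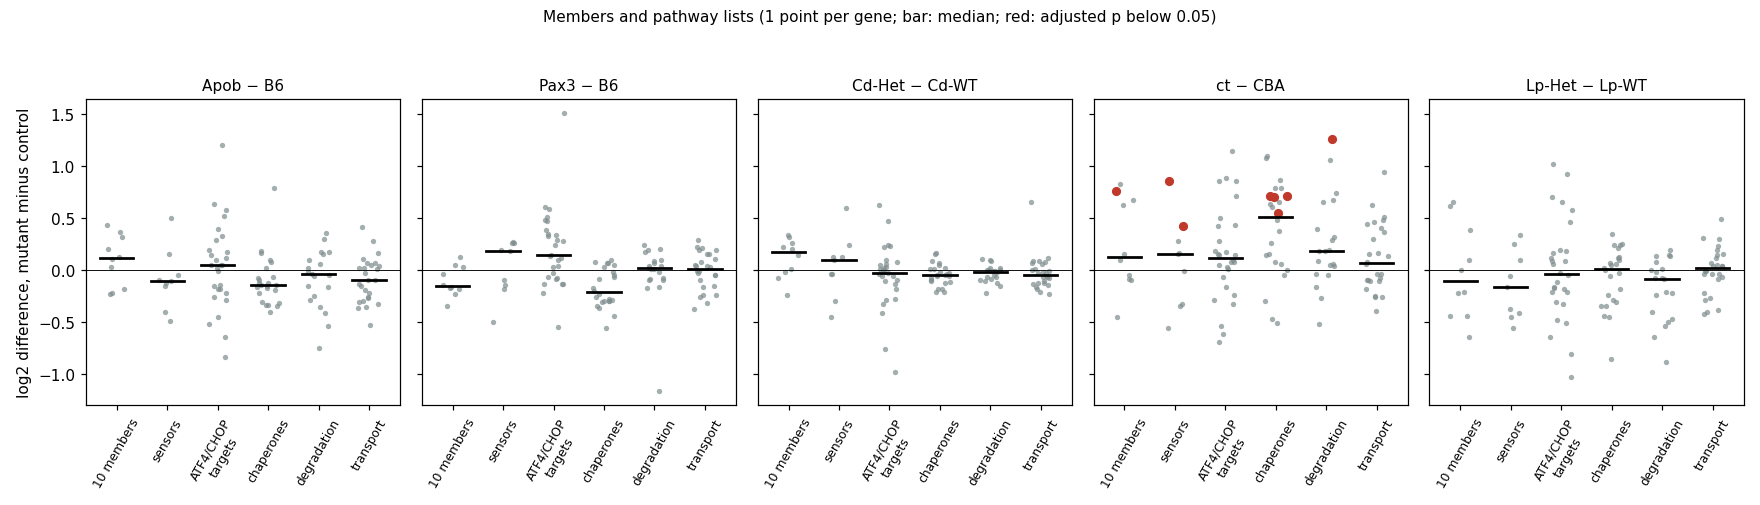
Log2 difference of each tested gene (points, y axis) in the 10 members and the 5 pathway lists (x axis) for the 5 comparisons; bars are list medians and red points have an adjusted p below 0.05. Called genes appear in the ct panel alone, where the chaperone median is 0.52.

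Mice of 1 group also varied in these genes, and that variation was independent of the group means compared above. Each array's deviation from its group mean was correlated with that of Hspa5 over the 36 arrays, which share the 9 group means and each array's scaling. Of the 9 other members, Creld2 went with Hspa5 (Pearson r = 0.69, permutation p within groups = 5.9e-04, adjusted over 9 relations 0.00531; Spearman rho = 0.66, permutation p = 8.5e-04, adjusted 0.00765). The r was 0.77 without ct replicate 3 and CBA replicate 4, and 0.60 without the 2 arrays farthest from the Hspa5 median (Cd-WT replicate 4 and B6 replicate 3). Xbp1 had r = 0.44 (permutation p = 0.016, adjusted 0.0718; rho = 0.38) and Hsp90b1 0.33 (permutation p = 0.0786, adjusted 0.236; rho = 0.39). The other 6, Herpud1, Atf4 and Ddit3 among them, had r between -0.05 and 0.19.

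Over all 12835 other genes tested the median r with Hspa5 was 0.00, and 0.374% were above 0.5. The 10 most alike were Hspa13 (0.70), Creld2, Sec23b (0.68), Ufl1 (0.66), Uso1 (0.65), Slc11a2 (0.63), Dnajb11 (0.63), Tfg (0.62), Copb1 (0.62) and Actl6a (0.60). Without ct replicate 3 and CBA replicate 4 their r was 0.62 to 0.84; Ufl1 ranked first, and Slc11a2, Dnajb11, Tfg and Actl6a were at ranks 33, 29, 19 and 26. Sec23b encodes a coat protein of vesicles leaving the ER and Dnajb11 a BiP co-chaperone. Among the other pairs of members, r was beyond 0.5 in size for Hsp90b1 with Pdia4 (0.54), Atf4 with Ddit3 (0.54), and Ddit3 with Dnajb9 (-0.67), Hsp90b1 (-0.57) and Pdia4 (-0.53). Without the same arrays these were 0.40, 0.05, 0.12, -0.28 and -0.32.

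**Figure D5:**
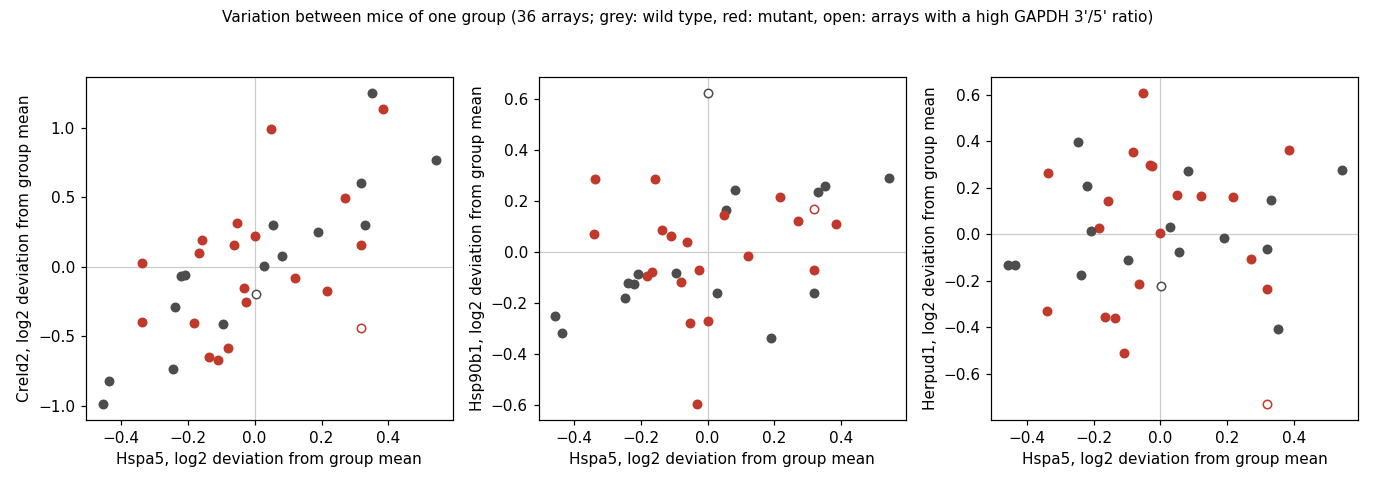
Deviation from the group mean on the log2 scale of Creld2, Hsp90b1 and Herpud1 (y axes) against that of Hspa5 (x axes) for the 36 mice; grey is wild type, red is mutant, and open points are ct replicate 3 and CBA replicate 4. Creld2 runs along Hspa5 (r = 0.69), Hsp90b1 less so (0.33) and Herpud1 not (0.01).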

How the data were processed

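Liver RNA of 36 mice was hybridised to 36 Affymetrix arrays (3 µg RNA each, per the labels). The deposited values are MAS5 signal intensities computed by the authors, per the submitters' processing notes; the MAS5 version is not given in the sources used here. The table holds 45101 probe sets (64 of them array controls); a platform table gave 34945 of them 1 symbol, 932 several and 9160 none, and 34741 matched RefSeq's GRCm38.p6 gene table. Signals were taken as log2(signal + 23.068), the offset being the 20th percentile. Each gene's brightest probe set stood for it, and genes with a mean log2 above 6.5107 (40th percentile; a signal of 68.1) were tested: 12836 of 18193. MAS5 signals are not quantile normalized and are noisy near background.

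All 36 arrays entered one limma model (version 3.58.1, R 4.3.3) with group means as its terms (eBayes with trend, two-sided, Benjamini-Hochberg over all genes, called below 0.05). It was tested on a simulated Apob comparison with 100 genes changed. The number called was 61 at 2-fold and 94 at 4-fold, with 7 false calls each, so 2-fold changes can be missed. Likeness to Hspa5 used within-group deviations with 100000 permutations within groups. Alternatives covered normalization, offset, filter, variance model, array weights, probe set choice, arrays fitted, replicate block and arrays left out. With 4 arrays per group their number limits the precision, and p-values measure the spread between mice given as separate biological replicates.

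Named genes were the 10 members, up to 4 called genes per pathway list and comparison, up to 3 called markers per list and comparison, and the 10 genes most correlated with Hspa5; Mbtps2 was added after its values were seen. The 5 pathway lists and 8 marker lists, like the members, were chosen with earlier results of these data known.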

Additional observations from a re-analysis of the deposited data

Results flagged for a closer look

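Of 90 groups of 4 arrays (10 genes in 9 groups), 13 had an array standing apart from the other 3 by Dixon's test at its 95% critical value, where chance flags about 1 in 20. For Hspa5 these were Cd-WT replicate 4 (signal 26203) and Apob replicate 3 (21766). For Hsp90b1 they were Cd-WT replicate 4 (18221) and CBA replicate 4 (28017). CBA replicate 4, the array with a GAPDH 3′ to 5′ ratio of 52.5, also stood apart for Dnajb9 (15714) and Ddit3 (16.3). Ct replicate 3, with a ratio of 1.72, stood apart for Herpud1 (6971) and Atf4 (3817), and ct replicate 4 for Creld2 (3921). The others were Lp-Het replicate 2 for Pdia4 (597), B6 replicate 1 for Herpud1 (18956), Apob replicate 3 for Xbp1 (19667) and Cd-Het replicate 2 for Atf4 (2646). The RNA quality of the arrays beside these values was given as measured, and its part in them was not tested.

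The second Atf4 probe set, 1438992_x_at, which did not stand for the gene, differed by -0.88 between ct and CBA mice (limma adjusted p = 0.0302 over all probe sets), while the probe set that stood for Atf4 differed by 0.10. Without ct replicate 3 and CBA replicate 4 both were below 0 (-0.97 and -0.34).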

How the results depend on the processing

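The count of members called in ct mice was 1 and became 0 with quantile normalization, with the compared arrays alone, without _s_at, _x_at and _a_at probe sets (where Hspa5 has no probe set left) and without ct replicate 3 and CBA replicate 4; leaving out single arrays gave 0 to 1. With array weights the members called were 3 in Lp-Het mice, 2 in the F test of the mutant effects and 2 in that of the controls. All other counts of members stayed at 0 in the Apob, Pax3 and Cd comparisons, and at 0 when any single array was left out of the Lp comparison or of either F test. Counts over all 12836 genes moved by more than 1.5 times in some settings. With array weights they were Apob 744 against 71, Pax3 37 against 0 and Lp 170 against 4. The weighted F tests called 1547 against 329 for mutant effects and 4018 against 1423 for controls. With the compared arrays alone they were Apob 186 and ct 38 against 910. With all probe sets they were Apob 209, Cd 1 against 0, mutant effects 634 and controls 2595. Those counts are over 25941 probe sets, so they are not on the same base as counts over genes. Median centring gave Apob 40. Without ct replicate 3 and CBA replicate 4 they were Apob 326, ct 236, Lp 28 and mutant effects 546. In the Lp comparison quantile normalization gave 8, and the 60th percentile filter gave 9 of 9815 genes.

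Of 50 differences of members, 27 alternatives other than single arrays reversed the sign, none of a called value. Median centring gave Hspa5 -0.029 in Apob, Hsp90b1 -0.0041 in Pax3, Atf4 0.038 in Cd-Het and Herpud1 0.0010 in ct mice. Quantile normalization gave Hspa5 0.036, Pdia4 -0.0078 and Dnajb9 0.018 in Pax3 and Hsp90b1 -0.0014 in Cd-Het mice. Array weights gave Dnajb9 0.021 and Ddit3 -0.033 in Pax3, Hspa5 0.0031 and Atf4 0.0072 in Cd-Het, Pdia4 0.056, Dnajb9 0.43, Herpud1 0.0018, Atf4 -0.30 and Ddit3 -0.076 in ct, and Sdf2l1 -0.028 in Lp-Het mice. Without shared-probe suffixes Xbp1 was 0.14 in Pax3, -0.30 in ct and -0.13 in Lp-Het mice. Without ct replicate 3 and CBA replicate 4, ct values were Pdia4 0.18, Dnajb9 0.28, Herpud1 0.13, Xbp1 -0.071, Atf4 -0.34 and Ddit3 -0.11. The causes were not tested.

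Leaving out single arrays reversed the sign of 22 differences. In Apob mice the range was Hspa5 -0.12 to 0.14, Pdia4 -0.39 to 0.015, Sdf2l1 -0.10 to 0.49 and Creld2 -0.059 to 0.54. In Pax3 mice the range was Hsp90b1 -0.064 to 0.12, Pdia4 -0.16 to 0.25, Dnajb9 -0.15 to 0.080, Sdf2l1 -0.64 to 0.017, Xbp1 -0.30 to 0.050 and Ddit3 -0.096 to 0.26. In Cd-Het mice the range was Hspa5 -0.17 to 0.10, Hsp90b1 -0.032 to 0.11, Creld2 -0.41 to 0.014 and Atf4 -0.048 to 0.067. In ct mice the range was Pdia4 -0.23 to 0.19, Dnajb9 -0.27 to 0.37, Herpud1 -0.14 to 0.20, Xbp1 -0.033 to 0.31, Atf4 -0.17 to 0.21 and Ddit3 -0.11 to 0.97. In Lp-Het mice the range was Sdf2l1 -0.11 to 0.27 and Ddit3 -0.084 to 0.12.

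Replicate numbers are shared between each mutant group and its control. Same-numbered arrays correlated at -0.15 to 0.21 in their deviations, and not every pair passed 0.1. The same-numbered control was the best match for ct replicates 1, 2 and 4 (r = 0.21, 0.21 and 0.11) and Cd-Het replicates 1, 3 and 4. It was also best for Apob replicate 2, Pax3 replicates 2 and 3 and Lp-Het replicate 3. These values cannot tell whether a number marks a shared batch, and the main fit did not use the numbers. With the replicate block the member counts were 1 in ct mice (Hspa5 0.76 ± 0.21, limma adjusted p = 0.0273) and 0 in the other 4 comparisons and in the F test of mutant effects, and the genes called in ct mice were 1306. The F test of controls with the block and that of mutant effects with the compared arrays alone could not be fitted.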
